A study of Mus musculus with 12 samples.

Results

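TET2 chromatin immunoprecipitation sequencing (ChIP-seq) in 2 types of mouse hematopoietic cell cultures gave 1 deposited list of TET2 sites per cell type. Described here are the myeloid-only sites at gene ends: 3680 of the 18533 merged myeloid sites on chromosomes 1 to 19. Overlapping rows of a list were first merged. The members were chosen by measured values of the lists: a site had to be in the myeloid list, share no base with a site of the AML list, and have its midpoint within 1 kb of the start or end coordinate of a protein-coding RefSeq gene. The 13668 myeloid-only sites thus divide into these 3680 and 9988 farther from gene ends. Another 4865 myeloid sites were shared with the AML list, 493 of them at gene ends, and the AML list held 1913 unshared sites, 102 of them at gene ends.

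The myeloid cells were hematopoietic cells immortalized by AML1-ETO, a leukemia fusion protein delivered by the MigR1 retrovirus, and were Tet2-/-; AML1-ETO or Tet2fl/fl; AML1-ETO. All myeloid libraries therefore carry the AML1-ETO transgene. The AML cells, acute myeloid leukemia cultures without that transgene, were Npm1+/cA; Fl3+/ITD; Tet2-/- or Npm1+/cA; Fl3+/ITD as the labels spell it. In each cell type TET2 was precipitated from 2 knockout and 2 wild-type samples with an antibody to its N-terminal part, and 1 IgG and 1 input library were made, 12 libraries in all. The growth factors were stem cell factor at 50 ng/ml and interleukins 3 and 6, each at 10 ng/ml. Cells were fixed with 2 mM disuccinimidyl glutarate and 1% formaldehyde. The lists hold positions only, with no score and no value per library. The spread between replicates and the depth behind a site are therefore unknown, and no comparison below has a replicate check or a test. The marker genes of the cell types cannot be checked in such lists. The AML list is the shorter (7002 deposited rows, against 19706 in the myeloid list), so a site missing from it is a site not listed, not a site shown to be unbound.

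TET2 is a dioxygenase that oxidizes 5-methylcytosine in DNA to 5-hydroxymethylcytosine and beyond, a route by which methylation is removed. Unlike TET1 and TET3 it has no CXXC domain of its own, the zinc finger that binds unmethylated CpG. TET2 is often lost by mutation in human myeloid neoplasms. Many promoters, above all those of genes active in every cell, lie in CpG islands, stretches in which the CpG dinucleotide has been kept and is mostly unmethylated. Promoters of tissue-restricted genes more often have few CpG.

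The sequences below show what lies under the sites: the 250 bases before a transcription start, 5′ to 3′, from RefSeq on the GRCm38.p6 assembly. Each CpG is in capitals. The first 4 belong to genes that every cell uses and are 4 of the 8 promoters that a rule took, list by list, from those lying whole within a myeloid-only site; the 4 were picked after the letters were seen. Rpl41 encodes a protein of the large ribosomal subunit, Ndufa10 a subunit of respiratory complex I, Psmc6 an ATPase of the proteasome and Sf3b2 a splicing factor of the U2 particle.
Rpl41 (chr10:128549169-128549418, minus strand): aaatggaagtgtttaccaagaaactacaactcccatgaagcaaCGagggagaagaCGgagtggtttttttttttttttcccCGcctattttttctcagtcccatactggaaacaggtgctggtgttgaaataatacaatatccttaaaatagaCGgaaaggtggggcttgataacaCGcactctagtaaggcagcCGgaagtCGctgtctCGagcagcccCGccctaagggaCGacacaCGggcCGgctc
Ndufa10 (chr1:92473759-92474008, minus strand): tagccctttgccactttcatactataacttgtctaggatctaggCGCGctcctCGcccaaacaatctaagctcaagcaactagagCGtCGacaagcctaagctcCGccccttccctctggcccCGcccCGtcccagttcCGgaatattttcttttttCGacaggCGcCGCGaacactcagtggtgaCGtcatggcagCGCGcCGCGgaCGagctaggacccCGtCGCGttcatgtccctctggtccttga
Psmc6 (chr14:45329574-45329823, plus strand): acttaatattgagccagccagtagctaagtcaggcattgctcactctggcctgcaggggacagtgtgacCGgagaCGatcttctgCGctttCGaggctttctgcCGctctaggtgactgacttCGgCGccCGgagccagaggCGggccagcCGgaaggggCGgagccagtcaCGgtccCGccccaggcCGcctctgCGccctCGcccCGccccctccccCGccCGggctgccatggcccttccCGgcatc
Sf3b2 (chr19:5295458-5295707, minus strand): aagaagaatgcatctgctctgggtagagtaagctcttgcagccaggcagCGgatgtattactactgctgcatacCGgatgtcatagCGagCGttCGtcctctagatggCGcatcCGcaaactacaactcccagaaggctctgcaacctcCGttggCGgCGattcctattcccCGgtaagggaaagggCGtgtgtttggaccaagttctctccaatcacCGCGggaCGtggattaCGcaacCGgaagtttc
These hold 12, 22, 20 and 17 CpG, in the order shown. CCGGAAG, a core recognized by ETS factors, is in 3 of the 8 promoters the rule took, all printed here. It begins 56 bases before the start of Rpl41, 100 bases before that of Psmc6 and 11 bases before that of Sf3b2. Psmc6 also has 4 GC boxes, GGGCGG read on either strand, and Ndufa10 has a full cAMP response element, TGACGTCA, 67 bases before its start.

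The next 4 were chosen after their values were seen, to show promoters with few CpG. Mmp8, a collagenase of neutrophil granules, and Cd68, a lysosomal glycoprotein of macrophages, have myeloid-only sites. Camp, the granule peptide cathelicidin, and the outermost start of Runx1, the gene of the AML1 part of AML1-ETO, have sites shared with the AML list.
Mmp8 (myeloid-only site, chr9:7558179-7558428, plus strand): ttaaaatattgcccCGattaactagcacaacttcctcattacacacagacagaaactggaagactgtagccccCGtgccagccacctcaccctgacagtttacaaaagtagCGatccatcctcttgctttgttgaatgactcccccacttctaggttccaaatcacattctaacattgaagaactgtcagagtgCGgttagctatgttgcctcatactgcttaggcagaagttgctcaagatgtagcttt
Cd68 (myeloid-only site, chr11:69666171-69666420, minus strand): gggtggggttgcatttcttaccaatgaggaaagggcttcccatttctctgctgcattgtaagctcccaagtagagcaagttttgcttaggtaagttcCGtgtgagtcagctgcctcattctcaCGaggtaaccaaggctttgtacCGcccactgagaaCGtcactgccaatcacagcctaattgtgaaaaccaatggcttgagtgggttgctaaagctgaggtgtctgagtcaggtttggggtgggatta
Camp (shared site, chr9:109849457-109849706, minus strand): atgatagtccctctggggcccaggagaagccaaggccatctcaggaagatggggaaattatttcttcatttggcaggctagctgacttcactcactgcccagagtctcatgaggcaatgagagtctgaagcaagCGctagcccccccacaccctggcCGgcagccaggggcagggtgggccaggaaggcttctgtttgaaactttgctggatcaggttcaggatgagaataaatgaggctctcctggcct
Runx1 (shared site, chr16:92826075-92826324, minus strand): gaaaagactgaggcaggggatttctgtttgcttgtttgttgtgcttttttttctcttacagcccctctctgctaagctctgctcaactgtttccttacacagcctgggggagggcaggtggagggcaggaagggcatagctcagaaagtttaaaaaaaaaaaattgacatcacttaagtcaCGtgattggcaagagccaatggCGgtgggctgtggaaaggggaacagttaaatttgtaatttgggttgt
Mmp8 and Cd68 hold 4 CpG each, and Camp and this Runx1 start hold 2 each. Mmp8 has a C/EBP match, TTGCNNAA, 19 bases before its start, and a PU.1 match, GAGGAAGT, on the other strand 221 bases before it.

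Myeloid-only sites lay at gene ends far more often than the other sites did, which is part of how they were chosen and is given as a description. The share was 26.9% of the myeloid-only sites (95% interval 26.2 to 27.7), against 10.1% of the shared sites (9.30 to 11.0) and 5.33% of the AML-only sites (4.37 to 6.44). All intervals here are exact Clopper-Pearson intervals; they cover counting error only, and neighbouring sites are not independent. Of the 3680 members, 3456 came from 1 deposited row, 217 from 2 and 7 from 3. Just inside the 1 kb limit lay members 999 bp from an end of Plekho2, 993.5 bp from an end of Tnfaip8 and 993 bp from an end of Rmi2. Just outside it lay sites 1002.5 bp from an end of Rp9, 1004 bp from an end of Colgalt1 and 1004.5 bp from an end of Plekhg1.

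The members sat at transcription starts. The rule treats both ends of a gene alike, and strand, taken from the promoter table, was known for the nearest gene of 3015 members. Of these, 2792 were nearest to a start and 223 to an end, so 92.6% (91.6 to 93.5) lay at a start. Among shared gene-end sites it was 327 of 396, or 82.6% (78.5 to 86.2), and among AML-only gene-end sites 44 of 92, or 47.8% (37.3 to 58.5). The outermost start of a RefSeq gene was used, so a site at an inner start counts only if it is near an outer end.

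Most of the members at starts were centred on the start itself. Their median midpoint was at -6.5 bp, upstream positions being negative, with quartiles at -86.5 and 97.5 bp, and 1461 of the 2792 lay upstream. Within 100 bp of the start lay 53.2% of them (51.4 to 55.1), against 35.5% of shared sites at starts (30.3 to 40.9) and 29.5% of AML-only sites at starts (16.8 to 45.2). Within 250 bp it was 75.3% (73.6 to 76.8), against 65.4% (60 to 70.6) of the shared sites. The fullest 100-bp bin, just upstream of the start, held 30.2% of the members and 20.5% of the shared sites.

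**Figure D1:**
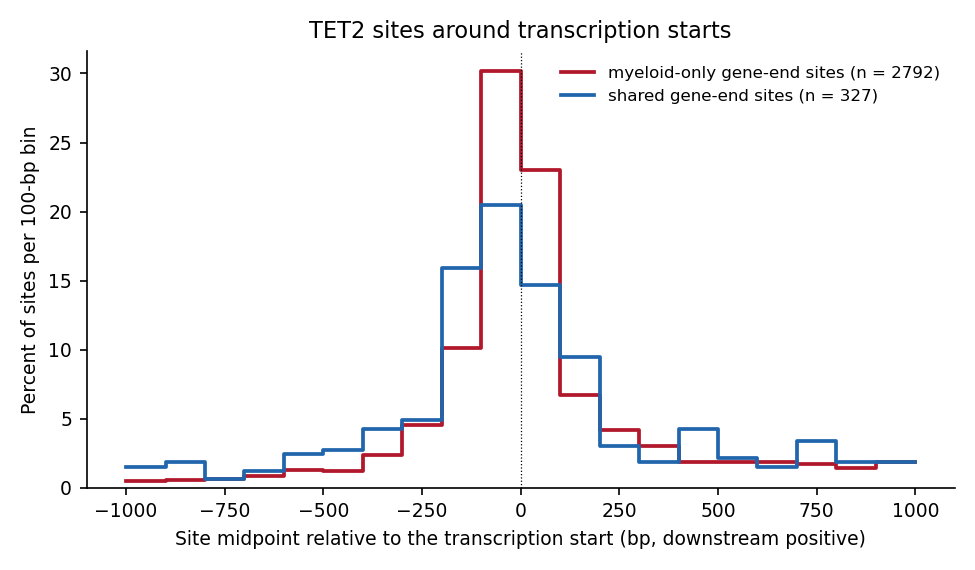
Percent of sites at transcription starts by position of the site midpoint, in 100-bp bins, for 2792 myeloid-only and 327 shared gene-end sites whose nearest gene has a known strand. The myeloid-only curve reaches 30.2% in the bin just upstream of the start, where the shared curve reaches 20.5%.

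Members were narrower than shared sites at gene ends and wider than other myeloid-only sites. Their median width was 722 bp (quartiles 668 and 815), against 806 bp (735 and 948) for shared and 700 bp (680 and 749) for AML-only gene-end sites. Myeloid-only sites away from gene ends had a median of 688 bp (656 and 739). Members at starts had a median of 729 bp and those at ends 692 bp. The lists have no heights, and how width relates to signal in them was not tested.

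The widest member, 2338 bp merged from 3 rows, covered the start of Gata2 (chr6:88193298-88195636), a zinc finger factor of blood stem cells, progenitors and mast cells. Its midpoint lay 576 bp inside the gene. The next widest lay at the starts of Setd5, a SET-domain protein (1909 bp), and Actr3, the ARP3 subunit of the actin-nucleating ARP2/3 complex (1847 bp). Both of the remaining 2 of the 5 widest spanned a pair of starts on opposite strands, Spata5 with Nudt6 (1801 bp) and Babam2 with Rbks (1745 bp).

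Pairs of starts on opposite strands made up much of the crowded ends. Whether the 2 genes of a pair lie back to back or overlap at their starts, as Spata5 and Nudt6 do, was not counted. An end of at least 2 protein-coding genes lay within 1 kb of 642 members, or 17.4% (16.2 to 18.7), against 51 shared sites, or 10.3% (7.80 to 13.4), and 9 AML-only sites, or 8.82% (4.11 to 16.1). Of 631 members with exactly 2 genes, 354 had 2 starts on opposite strands, 100 a start and an end, 7 had 2 starts on the same strand and 5 had 2 ends. Strand was not known for 145. Of the 51 shared sites, 17 had 2 starts on opposite strands. Another 11 members had ends of 3 genes. One of these, at chr13:100650673-100651384, lay at the starts of Rad17, a checkpoint clamp loader, Taf9, a TFIID subunit, and Ak6, an adenylate kinase whose gene overlaps that of Taf9. Another, at chr7:44815408-44816638, lay at the starts of the nucleoporin gene Nup62, the stress factor gene Atf5 and Il4i1b.

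Promoters under a member were richer in CpG than those under other sites or none, by a measure the rule did not use. RefSeq promoter windows of 300 bases, 250 before and 50 after a start, were counted as occupied when a site overlapped them. For windows, shared sites counted whether or not they lay at a gene end, while members lie at gene ends by the rule. Of 20085 windows of 16457 genes, 3171 were under a member (15.8%), 351 under a shared site and 16079 under no site of either list. The remaining 484 were under other unshared sites of either list. Windows under a member held a median of 24 CpG, against 19 under a shared site and 10 under no site. The observed number of CpG over that expected from C and G content had a median of 0.84 (quartiles 0.70 and 0.96), against 0.74 (0.32 and 0.91) under a shared site and 0.47 (0.19 and 0.78) under no site. Windows under other unshared sites lay between, with a median of 21 CpG and 0.75 of the expected number (0.52 and 0.90). Fewer than 10 CpG were in 7.82% of the windows under a member, against 32.2% of those under a shared site.

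**Figure D2:**
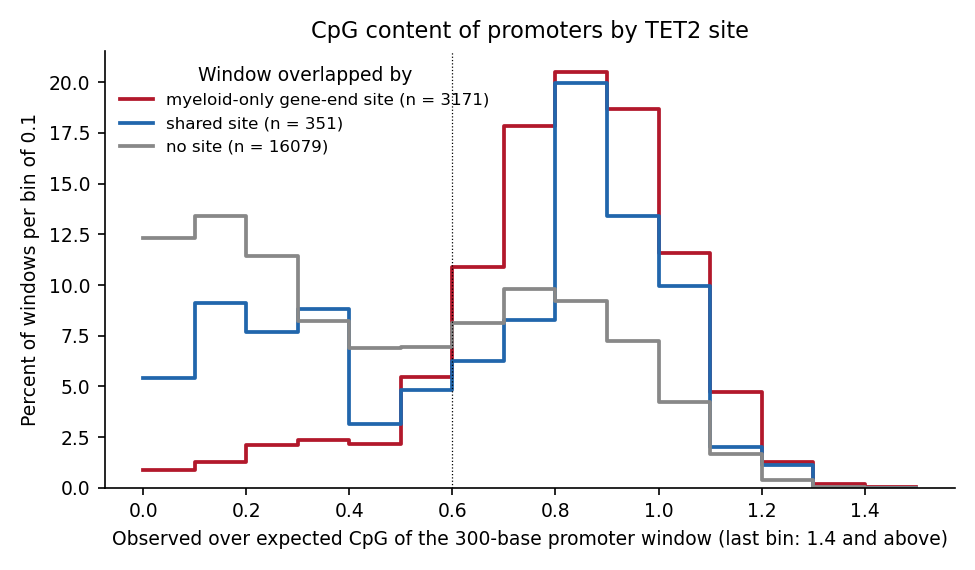
Observed over expected CpG of 300-base promoter windows, as percent of windows per bin of 0.1, for windows under a myeloid-only gene-end site, under a shared site and under no site. The dotted line marks 0.6. Myeloid-only windows form a single hump with a median of 0.84, while shared windows have a further group at low values and windows with no site have a median of 0.47.

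Windows were called CpG-rich when observed over expected CpG was at least 0.6 and GC content at least 50%. By this measure 82.9% (81.6 to 84.2) of the windows under a member were CpG-rich, against 57.5% (52.2 to 62.8) under a shared site, 68.4% (64 to 72.5) under other unshared sites, 38.4% (37.6 to 39.1) under no site and 46.5% of all windows. Read the other way, 28.2% (27.3 to 29.1) of CpG-rich windows lay under a member, against 5.03% (4.63 to 5.46) of the other windows. For shared sites the shares were 2.16% and 1.39%. The share under a member climbed through every class of observed over expected CpG, from 1.61% below 0.2 to 33.6% at 1 and above. The share under a shared site was between 1.10% and 2.81% in all 6 classes. It was at most 1.69% in the classes below 0.8, 2.81% (2.33 to 3.36) from 0.8 to 1 and 2.73% at 1 and above.

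**Figure D3:**
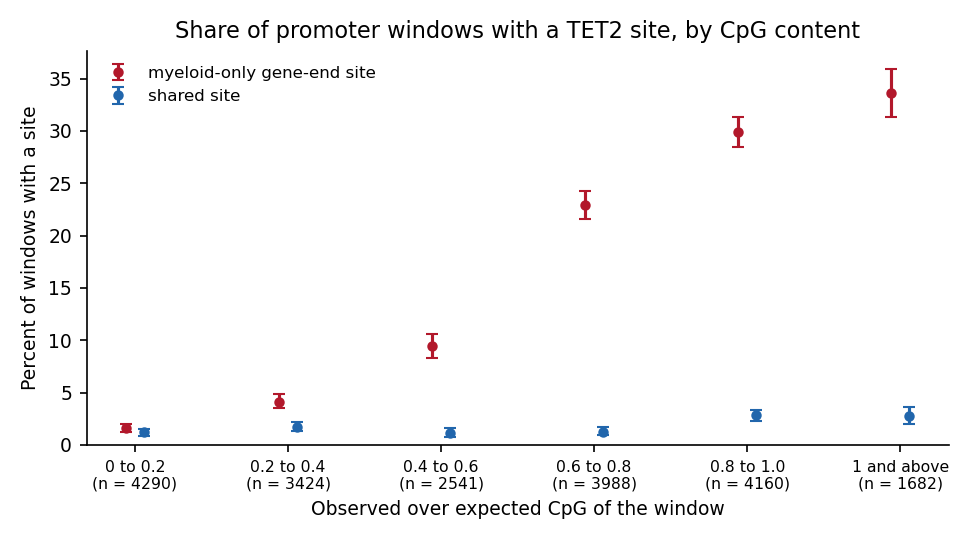
Percent of promoter windows overlapped by a myeloid-only gene-end site and by a shared site, in 6 classes of observed over expected CpG, with exact 95% intervals and the number of windows. The myeloid-only share is 1.61% in the lowest class and 33.6% in the highest. The shared share is 1.10% to 1.69% in the classes below 0.8 and 2.73% to 2.81% in those above.

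Among short motifs, the ETS core was more frequent under sites than elsewhere, also within CpG-rich windows. CCGGAAG was found in 28.9% of windows under a member, 24.8% under a shared site, 8.01% under no site and 11.9% of all windows. Within CpG-rich windows alone the shares were 31.3%, 36.1% and 14.7%. A match is a run of letters in the window, read on both strands, and does not show binding by any factor. No motif's letters contain those of another, apart from CpG itself. GC boxes, GGGCGG, the element of SP and KLF factors, were in 71.7% of windows under a member, 57.3% under a shared site and 41.5% under no site. Among CpG-rich windows these shares were 77.9%, 79.7% and 76.3%, a difference of 1.64 percentage points between windows under a member and under no site. GCATGCGC, part of the NRF1 palindrome, was in 6.75%, 6.27% and 2.82% of the same classes, and in 7.22%, 9.90% and 5.95% of the CpG-rich ones. The E-box CACGTG of MYC, MAX and USF was in 12.3%, 7.69% and 7.02% of all windows, and in 13.2%, 10.4% and 11.1% of the CpG-rich ones. TATAAA, the TATA box, was in 5.17%, 8.55% and 14.5%, and in 4.03%, 4.46% and 4.89% of the CpG-rich ones, where the intervals overlap.

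Over all windows, motifs of blood cell factors were in a lower share under members than under shared sites. TGTGGTT, the RUNX motif, was in 3.5% of windows under a member, 8.26% under a shared site and 4.98% under no site. TTGCNNAA, a relaxed form of the C/EBP site, was in 8.33%, 15.7% and 10.5%, GAGGAAGT of PU.1 in 3.85%, 7.12% and 2.95%, and TGANTCA of AP-1 in 3.94%, 8.55% and 7.67%. CpG content moves with these shares: among CpG-rich windows RUNX was in 3.27%, 6.44% and 2.12%, C/EBP in 7.34%, 9.41% and 4.99%, PU.1 in 3.08%, 4.46% and 1.94%, and AP-1 in 2.93%, 6.44% and 3.29%. The CpG-rich shared windows number 202, so their intervals are wide. The AGATAA motif of GATA factors was in 5.08%, 7.98% and 10.6% of all windows, but in 3.73%, 4.46% and 3.34% of the CpG-rich ones. CCAAT of NFY was in 35.5%, 31.9% and 39.1% of all windows and in 35.7%, 33.2% and 36.8% of the CpG-rich ones. AAGATGGCG of YY1 was in 3.47%, 1.71% and 1.5%, CTACAANTC of ZNF143 in 2.96%, 1.14% and 1.72%, and the full cAMP response element in 4.04%, 2.28% and 1.93%. Among CpG-rich windows these were 3.95%, 2.97% and 3.21% for YY1, 3.04%, 1.49% and 2.49% for ZNF143, and 4.60%, 2.97% and 3.45% for the response element.

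**Figure D4:**
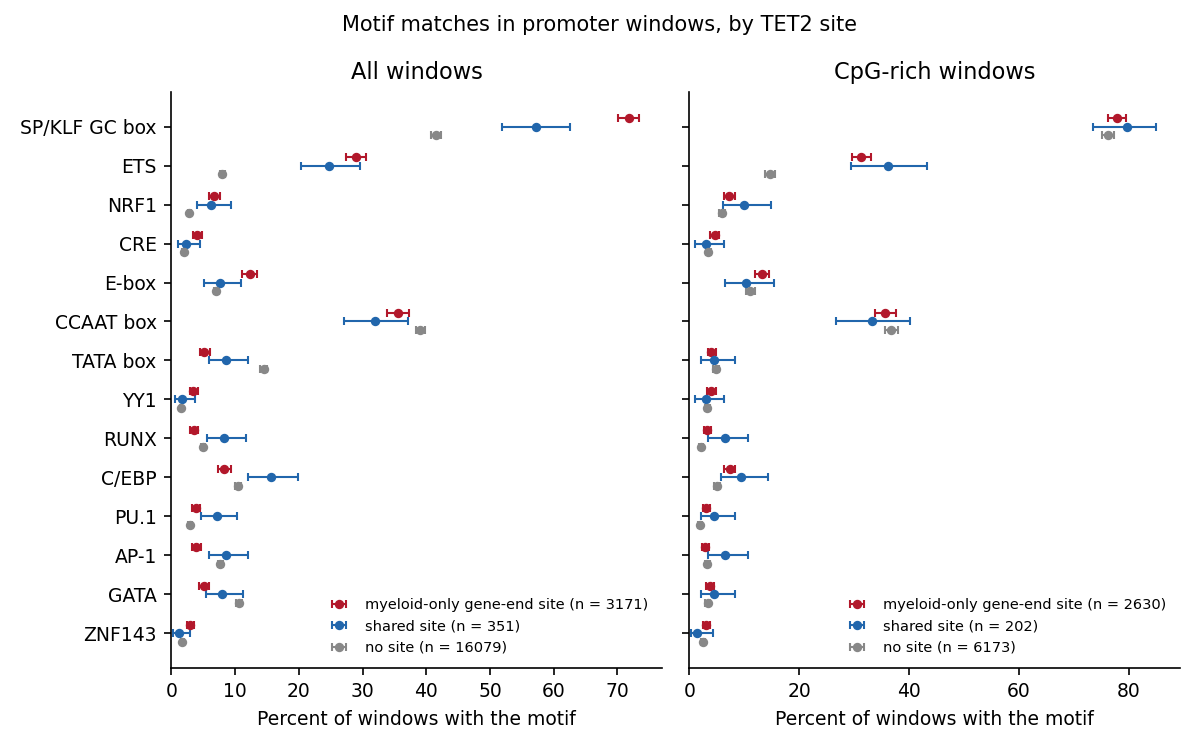
Percent of promoter windows that hold each motif on either strand, with exact 95% intervals, for windows under a myeloid-only gene-end site, under a shared site and under no site, in all windows (left) and CpG-rich windows (right). The ETS points of windows with a site lie to the right of the no-site point in both panels, at 28.9% against 8.01% and at 31.3% against 14.7% for the myeloid-only windows.

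Of 20665 protein-coding genes, 4141 had a member within 1 kb of an end, a background of 20.0%, against 533 genes with a shared site there, or 2.58%. Among the 16457 genes of known strand, 3172 had a member at the start (19.3%) and 356 at the end (2.16%). Most genes with a member, 3952, had 1, while 186 had 2 and 3 had 3. The share of genes with a member was 5.54% for genes up to 2 kb long, 24.5% for 10 to 50 kb and 9.21% above 200 kb. Gene families such as the olfactory receptors were not set apart in these length classes. By chromosome the share of genes with a member ran from 16.4% to 24.8%, with the highest value on chromosome 19. Chromosome 7 had 16.7%, or 21.0% without its 417 olfactory and vomeronasal receptor genes.

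The 35 gene lists below are described by counts beside that background, with no test of a list. Genes of the basic machinery of the cell carried members at rates above the background. Among cytosolic ribosomal proteins it was 38 of 80 genes (47.5%), among mitochondrial ribosomal proteins 29 of 78 (37.2%), and among translation initiation factors 24 of 53 (45.3%). Rpl13 and Rps10, of the large and small ribosomal subunits, had members with midpoints 9.5 bp inside and 34 bp before the start. At Eif5, which triggers GTP hydrolysis on the initiation complex, the member was 1440 bp wide. Among aminoacyl-tRNA synthetases, which charge tRNAs, it was 15 of 37 (40.5%). A shared site lay at an end of 1 cytosolic ribosomal, 2 initiation factor and 0 mitochondrial ribosomal genes, counts near the 2.58% of all genes.

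RNA synthesis and processing genes looked alike. RNA polymerase subunits had members at 14 of 27 genes (51.9%), spliceosome proteins at 22 of 47 (46.8%) and Mediator subunits at 11 of 28 (39.3%). Polr2a, the catalytic subunit of RNA polymerase II, had a member of 1109 bp centred 176 bp inside the gene. Prpf19, a ubiquitin ligase of the spliceosome, had one centred 33 bp inside. At Sf3b2 the member at the start (chr19:5295057-5295933) was accompanied by a shared site 640 bp beyond the transcript end. Srsf1, the splicing factor SF2, had its member 959 bp inside the gene.

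Energy, protein turnover and traffic genes followed. Members lay at 13 of 35 complex I subunits (37.1%), 12 of 36 subunits of complexes III to V (33.3%), 16 of 38 proteasome subunits (42.1%) and 22 of 55 Rab GTPases (40.0%). At Atp5c1, the gamma subunit of ATP synthase, the midpoint was 2.5 bp before the start. Ndufb8 of complex I and Cox5b of cytochrome c oxidase had theirs 22.5 bp before and 22.5 bp inside the start. Rab7, which directs late endosomes, had a member 37 bp before its start. A shared site lay at an end of 1 proteasome gene and 1 Rab gene.

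Cell cycle regulators had members at 13 of 35 genes (37.1%), DNA repair genes at 13 of 30 (43.3%) and chaperones and unfolded protein response genes at 10 of 24 (41.7%). Several of these genes had a pair of members within 1 kb of the start. Cdkn1b, the cyclin-dependent kinase inhibitor p27, had members centred 25.5 and 957 bp inside the gene, and Atf4, the factor of the integrated stress response, had them 35 and 880 bp inside. At Dnaja1, a DNAJ co-chaperone, they lay 82.5 bp before and 787 bp inside the start. Atm, the kinase that signals double-strand breaks, had a single member 10 bp inside its start.

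**Figure D5:**
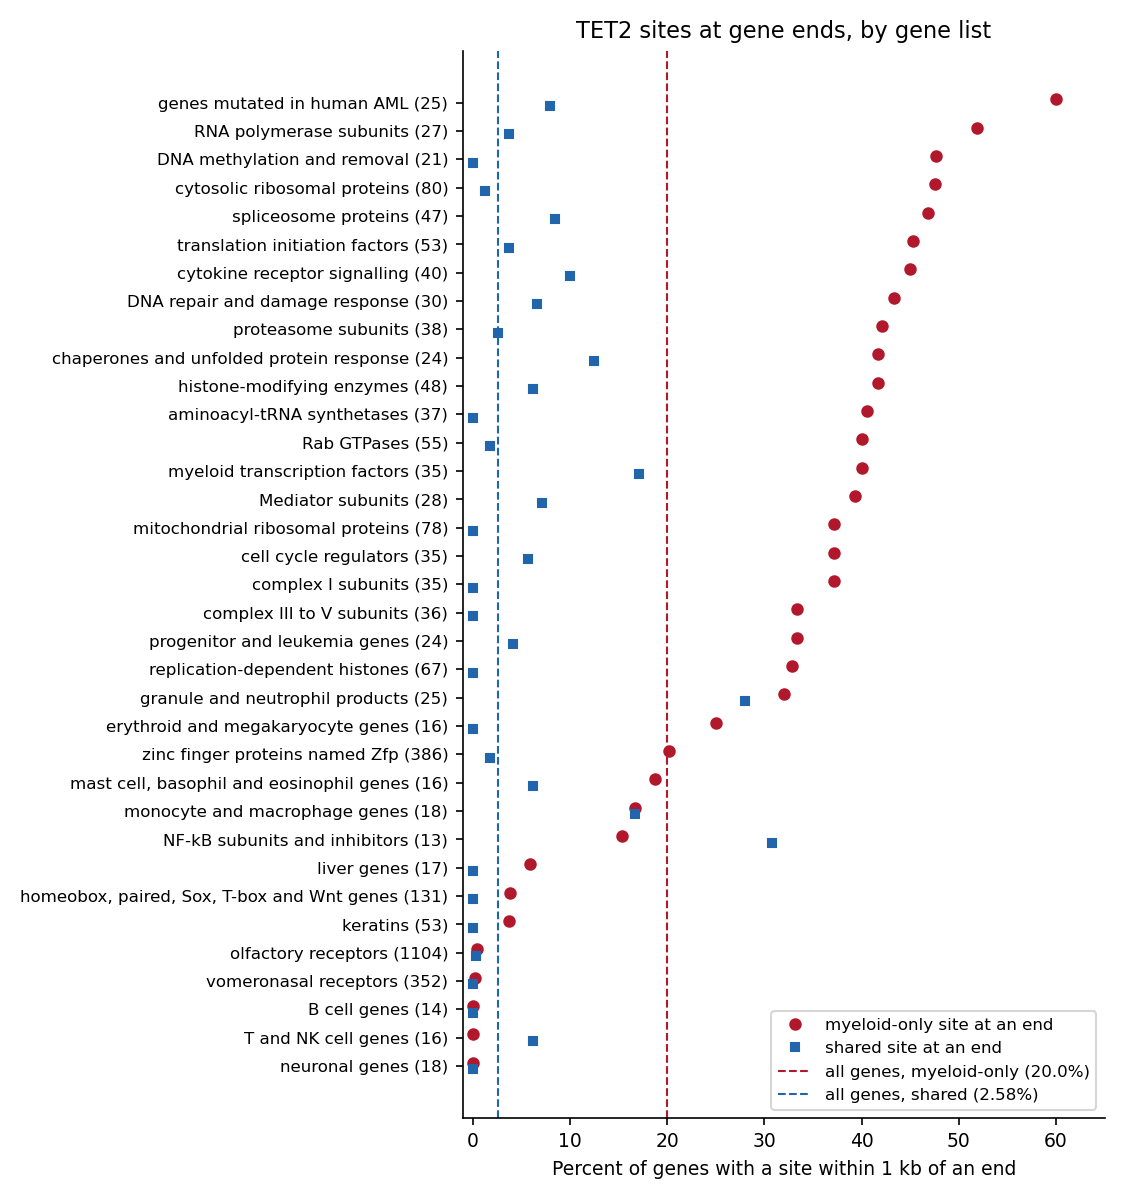
Percent of the genes of each list with a myeloid-only site (circles) and a shared site (squares) within 1 kb of an end, with the number of genes in brackets. Dashed lines mark all protein-coding genes, 20.0% and 2.58%. Circles of lists of basic cell functions lie to the right of the myeloid-only line. Those of olfactory, vomeronasal, neuronal, lymphoid and developmental lists lie near 0. The square of the T and NK cell list is at 6.25%, from 1 gene.

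Chromatin genes and genes mutated in leukemia also carried members above the background. Histone-modifying enzymes had members at 20 of 48 genes (41.7%), among them Dot1l, the histone H3 lysine 79 methyltransferase, and Prmt5, an arginine methyltransferase. In the list of DNA methylation and its removal, 10 of 21 genes (47.6%) had one. Tet2 itself had members at both ends: a site 751 bp inside the start (chr3:133544068-133544702) and a site 232 bp beyond the transcript end (chr3:133463103-133463788). It had 7 myeloid sites in all, of which 1 was shared. Gadd45b, a stress-induced protein linked to DNA demethylation, had a member 174 bp before its start. Among 25 genes recurrently mutated in human AML, members lay at 15 (60%) and a shared site at an end of 2. They included Ptpn11, the phosphatase SHP2 of RAS signalling, and Ddx41, an RNA helicase gene. Some of these genes are also in the spliceosome, signalling and methylation lists, so the lists are not independent.

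Blood cell regulators and products carried members too, and several of these lists also had shared sites at ends above the 2.58% of all genes. They were not alone in this: shared sites lay at 3 of 24 chaperone genes (12.5%) and 4 of 47 spliceosome genes (8.51%). Among progenitor and leukemia genes it was 1 of 24 (4.17%). Of 35 myeloid transcription factors, 14 (40.0%) had a member and 6 (17.1%) a shared site at an end. Runx3 had a member 102 bp before its outer start, and Gfi1 and Gfi1b, zinc finger repressors of blood cell fate, had members 221 bp before and 74 bp inside theirs. Irf1, an interferon-response factor, had one 412 bp inside. Among 40 genes of cytokine receptor signalling, 18 (45.0%) had a member and 4 (10.0%) a shared site. Socs1, a feedback inhibitor of JAK kinases, was 1 of the 3 genes with 3 members: 970 bp before its start, 597 bp inside its end and 508 bp beyond it. Its 6 assigned myeloid sites were all unshared. Socs2, of the same family, had 2 members at the same end. So did Spry2, an inhibitor of growth factor signalling through ERK, 791 bp inside and 586 bp before its start. The other genes with 3 members were Slc35b4, a nucleotide-sugar transporter, and Arap3, a GTPase-activating protein of ARF proteins.

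Granule and neutrophil genes had members at 8 of 25 genes (32.0%) and shared sites at 7 (28.0%). With a limit of 2 kb the share with a member was 60%, on a background of 23.8%. None of the 20 granule genes with a promoter window had a CpG-rich one. Of these 20, 5 (25%) had a member, against 8.62% of all genes with a window and none CpG-rich. Ncf1, the p47 subunit of the phagocyte oxidase, had a member 4 bp inside its start. Itgb2, the beta chain of leukocyte integrins, had 2 members at the same end, 25 and 845 bp from it. Mmp8, whose CpG-poor promoter is printed above, had a member 44.5 bp before the start and a shared site 976 bp before the transcript end. Monocyte and macrophage genes had a member at 3 of 18 (16.7%, or 27.8% with 2 kb) and a shared site at 3. Fcgr1, the high-affinity IgG receptor, had its member 12 bp before the start and Cd68 had one 32.5 bp before it. The NF-kB list had members at 2 of 13 genes (15.4%, 7.69% with 0.5 kb and 23.1% with 2 kb). With so few genes, this count is near the background of 20.0%. Shared sites lay at an end of 4 of the 13 (30.8%). Rela, the p65 subunit, had a member 714 bp beyond its transcript end and none at its start.

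Genes of other blood lineages were mixed. On the background of 20.0%, members lay at 8 of 24 progenitor and leukemia genes (33.3%) and 4 of 16 erythroid and megakaryocyte genes (25%). The list of mast cells, basophils and eosinophils was near the background, with members at 3 of 16 genes (18.8%). With 2 kb, members lay at 37.5% of this last list, on a background of 23.8%. Cd34, a sialomucin of progenitors, had one 37.5 bp inside its start, Tfrc, the transferrin receptor, one 23 bp before it, and Il1rl1, the interleukin 33 receptor, one 23 bp before it. Within 1 kb, members lay at 0 of 14 B cell genes and 0 of 16 T and NK cell genes, but with 2 kb at 14.3% and 6.25% of them. A shared site lay at an end of 0 B cell genes and 1 T and NK cell gene. Of the lymphoid genes with a window, 2 of 10 B cell genes and 2 of 13 T and NK cell genes had a CpG-rich one.

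Genes of other tissues carried few members. Members lay at 5 of 1104 olfactory receptors (0.453%), 1 of 352 vomeronasal receptors (0.284%), 2 of 53 keratins (3.77%), 1 of 17 liver genes and 0 of 18 neuronal genes. The receptor and keratin promoters are mostly CpG-poor. Developmental regulators are not: of 90 homeobox, paired, Sox, T-box and Wnt genes with a window, 59 had a CpG-rich one. This list was added after the data were seen. A member lay at 5 of its 131 genes (3.82%), and at 1 of those 59 (1.69%), against 2692 of all 8210 genes with a CpG-rich window (32.8%, 31.8 to 33.8). Of the neuronal genes, 7 had a CpG-rich window and none of these had a member. Among genes with a window and none CpG-rich, 711 of 8247 (8.62%) had a member. Within CpG-rich genes, members lay at 24 of 48 cytosolic ribosomal (50%), 11 of 16 RNA polymerase (68.8%) and 20 of 38 spliceosome genes (52.6%). Also above the 32.8% were 20 of 35 Rab (57.1%), 12 of 19 AML-mutated (63.2%) and 17 of 35 initiation factor genes (48.6%), among others. Zfp genes had 44 of 162 (27.2%) and NF-kB genes 2 of 8 (25%). No interval was computed for any list, and 8 genes are too few to set the NF-kB share apart from the 32.8%. Some lists were near the 32.8%: 7 of 20 tRNA synthetases (35%), 5 of 15 chaperones (33.3%) and 12 of 32 histone-modifying enzymes (37.5%). So were 5 of 14 genes of DNA methylation (35.7%) and 10 of 27 of cytokine signalling (37.0%). Which of these genes are expressed in the cultures is not in the lists.

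Zinc finger genes named Zfp, a family with many DNA-binding repressors, were at the background, with members at 78 of 386 (20.2%). Replication-dependent histone genes had members at 22 of 67 (32.8%) and no shared site. These genes are short, so a site at one end is usually also near the other, as at H4c6, where the same site lay 34 bp before the start and 416 bp before the end. In the histone clusters a single site can lie at 2 genes: chr13:21753566-21754206 lay at both H2ac15 and H2bc15.

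Members at transcript ends were a small group. The 223 sites nearest to an end had a median distance of 452 bp from it, against 90.8 bp for those nearest to a start, and 126 of them lay beyond the end. Of these 223, 17 overlapped a promoter window of some gene. Windows were missing for 4208 protein-coding genes, so the count could be higher. Counted by gene, 356 genes had a member within 1 kb of the transcript end, in 361 pairs of gene and site. In 223 of these pairs the gene's own end was the nearest gene end, in 95 it was the start of another gene and in 20 the gene's own start. For example, the sites at the ends of Rpl41, Mrps18b, Shc1, Ddx41 and Nfkbie lay nearer to the starts of Zc3h10, Atat1, Pygo2, Dok3 and Slc35b2, neighbours named for that reason. At Tet2, Ears2, the mitochondrial glutamyl-tRNA synthetase, and Rela, the gene's own end was the nearest. Both start and end had a member in 125 genes, 88 of them over 2 kb long, and in 61 of those 88 the site at the end was nearest to the gene's own end.

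Members stood farther from other TET2 sites than shared gene-end sites and other myeloid-only sites did. Another site of either list lay within 10 kb of 36.4% of members (34.9 to 38.0), against 51.9% of shared gene-end sites (47.4 to 56.4) and 46.0% of other myeloid-only sites (45.1 to 47.0). The median distance to the nearest other site was 16.7 kb, against 9.35 and 11.6 kb. AML-only gene-end sites, with 39.2% (29.7 to 49.4) and 13.1 kb, had an interval that covers the members' share. An AML site lay within 10 kb of 13.5% of members (12.4 to 14.6) and within 2 kb of 100 members. Each site was also assigned to 1 gene, that of the closest gene end up to 100 kb away. By this assignment 34.0% (32.5 to 35.4) of genes with a member had a further myeloid-only site away from gene ends, against 43.3% (38.7 to 47.9) of genes with a shared gene-end site and no member, and 22.7% (22 to 23.3) of genes with neither. A shared site was assigned to 19.7% (18.5 to 21.0) of genes with a member, against 11.8% (11.3 to 12.3) of genes with neither. Genes with neither lack a shared gene-end site by definition, while 66 genes with a member also had one. Part of that gap is therefore set by how the groups were made. Genes with a member had a median length of 20.6 kb, against 21.3 kb for genes with a shared gene-end site and no member and 16.6 kb for genes with neither, and the part of length in these shares was not tested. Ptpre, a receptor-type tyrosine phosphatase, and Rin3, a RAB5 exchange factor, each had 2 members around the start among 13 and 12 assigned myeloid sites.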

How the data were processed

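The authors deposited 1 list of TET2 sites per cell type. Its rows are positions on mm10 (chromosome, start, end), per the file headers, and hold no other value. Trimmomatic, Bowtie2 and MACS2 are named in the submitters' processing notes. Not given in the sources used here are versions, thresholds, pooling of replicates, and the use of knockout, IgG and input libraries. Whether starts count from 0 or 1 is not stated, so distances are uncertain by 1 bp. Depth is unknown.

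Rows of a list sharing at least 1 bp were merged, and chromosomes 1 to 19 were kept. Gene coordinates came from the RefSeq table of GRCm38.p6 (20665 protein-coding genes). Strand and 300-base promoter windows came from a RefSeq promoter table that matched 16457 of them by gene. CpG and motifs were counted on both strands with Python 3.11.15, numpy 2.4.6 and pandas 2.3.3, tested on simulated data. Intervals are exact Clopper-Pearson 95% (scipy 1.17.1). Figures were drawn with matplotlib 3.10.9.

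The members and lists were chosen with earlier results of these data known. Genes named were those with most members, at the widest, most crowded and limit sites, and up to 4 per list; some that this rule takes are not reported here. Camp, Runx1, the printed Mmp8 and Cd68 sequences and the neighbours of transcript ends were chosen after their values were seen. No p-value was computed. Alternatives changed the limit of a gene end, the overlap, the merging, the genes used and the windows.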

Additional observations from a re-analysis of the deposited data

How the results depend on the processing

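The share of myeloid-only sites at gene ends was 23.0% with a limit of 0.5 kb, 32.7% with 2 kb, 32.5% with all annotated genes and 29.3% when any base within the limit sufficed, against 26.9%. The share of members at a start was 95.1% with 0.5 kb and 88.8% with 2 kb. The share with ends of at least 2 genes was 14.8% with 0.5 kb, 21.1% with 2 kb and 25.6% with all annotated genes. The median width was 729 bp with 0.5 kb, 716 bp with 2 kb and 714 bp without merging. Another site lay within 10 kb of 34.2% of members with 0.5 kb and 39.7% with 2 kb. The ETS motif was in 31.6% of windows lying whole within a member and, in an alternative chosen after seeing the data, in 31.3% of CpG-rich windows under one. The cause was not tested. Requiring no AML site within 1 kb, or an overlap of 50% of the shorter site, kept the shares at gene ends, at starts, with ends of at least 2 genes and beside another site within their intervals; motif shares were not computed under these settings. With 2 kb, on a background of 23.8%, the share with a member became 60% of myeloid transcription factors, granule genes and cytokine signalling genes, 37.5% of mast cell, 27.8% of monocyte, 23.1% of NF-kB, 14.3% of B cell, 6.25% of T and NK cell and 0.906% of olfactory receptor genes. With 0.5 kb, on a background of 17.2%, it became 7.69% of NF-kB, 1.89% of keratin, 2.29% of homeobox, paired, Sox, T-box and Wnt genes and 0% of liver genes.

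No paired analysis was possible because the lists hold no value for any library, and no replicate was left out for the same reason. The lists are 1 per cell type, so every difference between myeloid-only, shared and AML-only sites is a difference between 2 lists of unequal length. The cell types differ in genotype and in the AML1-ETO transgene, which cannot be told apart from cell type here. Strand was not known for 4208 genes, and alternative inner starts were not counted as gene ends. Chromosome 18 had no promoter sequence, so its 511 genes are absent from the strand, window and motif results.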

Other observations

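Of 919 annotated miRNA hairpins, 15 overlapped a myeloid-only gene-end site and 5 a shared site, among 32 under any myeloid site. No background share is given for these counts. The members were chosen to lie at ends of protein-coding genes, so an overlap does not tie a site to a hairpin. The 15 included Mir207, Mir423 and Mir484, all named after the values were seen. Mir207 lay within a member of Dnaja1, at chr4:40722905-40723605. Mir423 lies on chromosome 11 from 77078064 to 77078172 and Mir484 on chromosome 16 from 14159626 to 14159692.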
